A study of Mus musculus with 12 samples.

Results

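Type I collagen is the protein that gives bone most of its organic matrix, and 10 genes of its fibrils and its processing are described here in the frontal bone of newborn mice. They were picked by name from the deposited count table: Col1a1 and Col1a2, which encode the chains of type I collagen, Col5a1 and Col5a2, which encode chains of type V collagen, and the folding, hydroxylation and cross-linking genes Serpinh1, P4ha1, Plod1, Plod2, Crtap and Lox. All 10 were found among the 23358 rows of the table, and all 10 passed the filter on low counts, which kept 16190 rows. RNA was sequenced from 12 samples at postnatal day 3 of frontal bone that was dissected with the nasal bone and with the sutures named coronal and frontonasal. Of the 4 groups, 3 samples were wild type on the C57BL/6 background, 3 were FGFR2C342Y/+ on C57BL/6, 3 were wild type on BALB/c and 3 were FGFR2C342Y/+ on BALB/c. FGFR2C342Y/+ mice carry 1 allele of fibroblast growth factor receptor 2 with the C342Y protein change and serve as a model of Crouzon syndrome, in which sutures of the skull fuse early. The labels do not say whether samples of a group came from separate animals, so p-values measure the spread between these samples, and they give no sex.

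A type I collagen molecule is a triple helix of a pair of alpha 1 chains and a single alpha 2 chain. The chains are hydroxylated on proline and lysine in the endoplasmic reticulum, fold with the help of the collagen chaperone HSP47, the product of Serpinh1, and leave the cell as procollagen. Outside the cell the propeptides are cut off, type V collagen helps to start fibrils and to set their diameter, and lysyl oxidase links the molecules to each other. In bone these steps belong mainly to osteoblasts, and defects in several of these genes cause osteogenesis imperfecta or Ehlers-Danlos syndromes.

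Library totals ran from 27181658 to 46521546 counts, with 0 odd counts in any library. Fgfr2 itself stood at 212 to 283 CPM (counts relative to library size, scaled by TMM) in C57BL/6 wild types, 337 to 375 in C57BL/6 mutants, 269 to 290 in BALB/c wild types and 271 to 318 in BALB/c mutants, and a level of RNA does not test the C342Y change. Sums over Y-linked genes were at least 4846 counts in all 3 C57BL/6 wild type libraries and in replicates 6, 15 and 16. They were at most 60 in the others, so sex was not balanced between the C57BL/6 groups or between the wild types of the strains. Run names in the sample descriptions differ between the strains and are shared within each, so that a strain effect and a run effect cannot be told apart. All 10 osteoblast markers were detected in every group. In bulk tissue, fewer cells of a type and less RNA per cell cannot be told apart.

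Replicate 1 of the C57BL/6 wild types stood apart before any group was compared. It held the lowest CPM of the 12 libraries for 9 of the 10 genes, all but Plod2. Its share of counts from Col1a1 and Col1a2 together was 12.3%, against 17.1% to 22.4% in the other libraries. It also had the lowest summed level of 10 osteoblast markers, 3532 CPM, and the highest summed level of 7 chondrocyte markers, 7127 CPM. Several results below are also given without this library.

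The type I collagen chains had the highest levels per length of any gene in this bone. Per kilobase of the deposited gene length, Col1a1 (chr11:94936270-94951856, mm10) ranked 1 and Col1a2 (chr6:4505697-4541543) ranked 2 of 23358 rows. Mean levels over the 12 libraries were 22200 CPM per kilobase for Col1a1 and 15952 CPM per kilobase for Col1a2. On the same per-length scale the type V chains ranked 78 for Col5a2 (chr1:45374331-45503282) and 114 for Col5a1 (chr2:27886425-28039510). Serpinh1 (chr7:99345375-99353239) ranked 25, above both type V chains. The lysyl oxidase gene Lox, on chromosome 18, ranked 262 and Crtap (chr9:114375131-114390712) ranked 309. The hydroxylase genes lay lowest, with P4ha1 (chr10:59323296-59373304) at rank 774, Plod1 (chr4:147909753-147936776) at rank 1010 and Plod2 (chr9:92542223-92608427) at rank 2192. The lowest count of any of the 10 genes in a library was 2660, for Plod2.

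**Figure D1:**
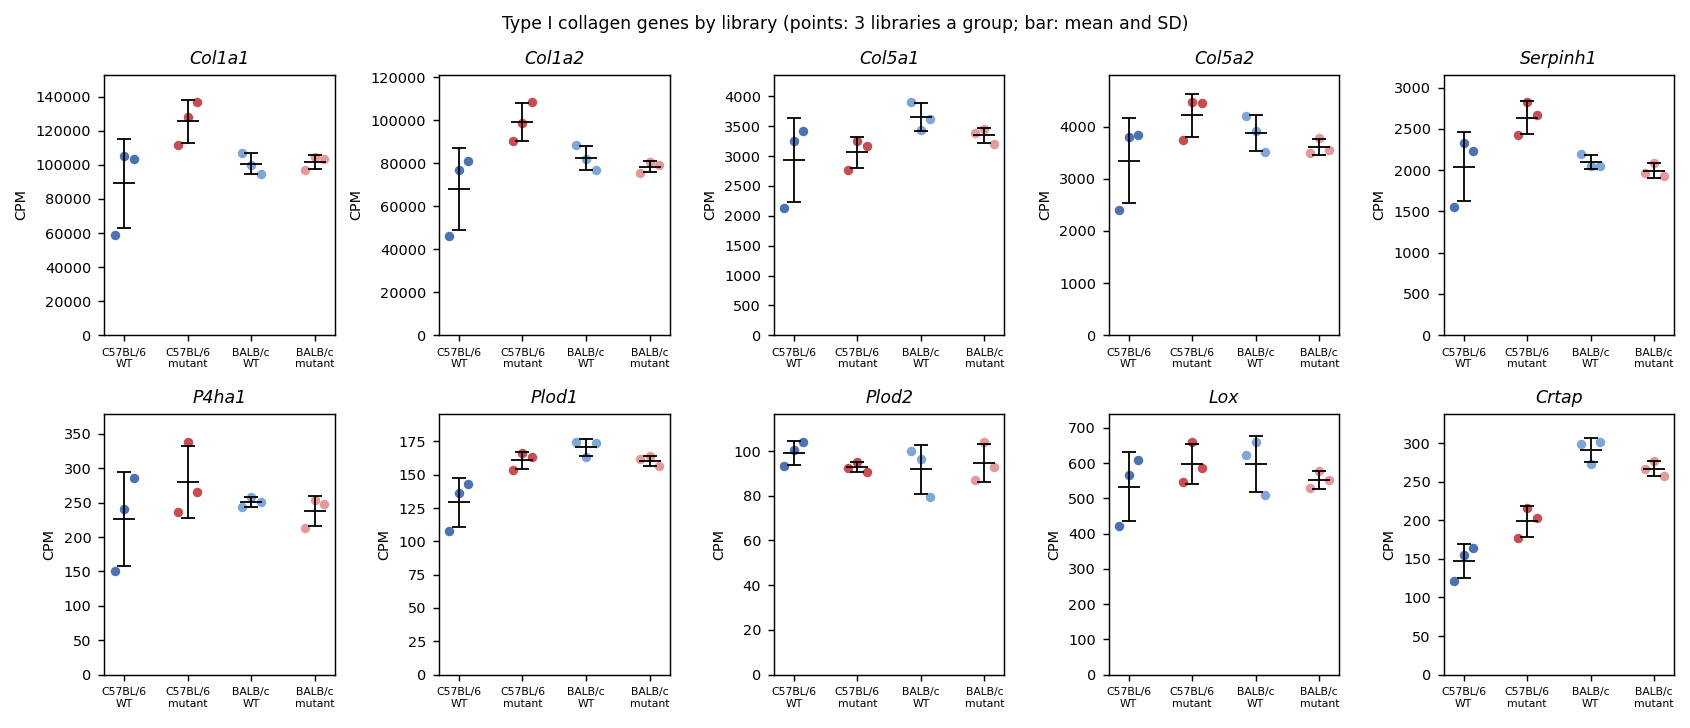
Level of each of the 10 genes in CPM (vertical axes, linear from 0) in each library, as points, by group along the horizontal axes, with bars for the group mean and SD (n = 3 libraries a group). The lowest C57BL/6 wild type point in most panels is replicate 1, and Crtap is the gene whose BALB/c points all lie above its C57BL/6 points.

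On C57BL/6 the question was how FGFR2C342Y/+ bone differed from wild type bone. Of the 10 genes, 3 were called higher in the mutants at an adjusted p under 0.05, namely Col1a2, Plod1 and Crtap, and 0 were called lower. Over all genes tested 23.9% were called, 11.3% higher and 12.6% lower. The median log2 fold change of the 10 was 0.33, against −0.0040 over all genes tested, and 9 of the 10 had a positive value. Both depend on wild type replicate 1, without which the median was 0.19, against 0.025 over all genes, and 8 of the 10 values were positive. Scaling by total counts in place of TMM moved the median of all genes on C57BL/6 by −0.20, and turned Col5a1 (−0.12) and Lox (−0.018) negative. With that scaling Col1a2 and Crtap were still called higher, Plod1 was not called (0.13, adjusted p = 0.107), and Plod2 was called lower (−0.29, adjusted p = 0.0223).

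Col1a1 stood at 58981, 105057 and 103620 CPM in C57BL/6 wild type replicates 1 to 3 and at 111864, 128247 and 136653 CPM in mutant replicates 4 to 6. All 3 mutant libraries lay above all 3 wild types, with the highest wild type close to the lowest mutant. The log2 fold change was 0.49 (SE 0.18, n = 3 and 3), and it missed the threshold with an adjusted p of 0.0594. Without wild type replicate 1 the difference was 0.29 with a smaller SE of 0.080, and passed with an adjusted p of 0.0362.

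Col1a2 measured 46281, 76750 and 81028 CPM in the wild types and 90414, 98927 and 108330 CPM in the mutants. Here too the groups did not overlap. Mutants were 1.46-fold higher, a log2 value of 0.54 with an SE of 0.17 and an adjusted p of 0.0343. It was 0.35 without wild type replicate 1, with an adjusted p of 0.0153.

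The type V chains did not pass the test. Col5a1 was at 2124, 3255 and 3417 CPM in wild types and at 2767, 3260 and 3167 CPM in mutants. Its groups overlapped widely, and its log2 difference of 0.064 (SE 0.15, adjusted p = 0.784) turned to −0.10 without wild type replicate 1. Col5a2 was at 2402, 3795 and 3839 CPM in wild types and at 3741, 4464 and 4450 CPM in mutants. Only the lowest mutant library fell inside the wild type range, and the log2 difference of 0.33 (SE 0.15) had an adjusted p of 0.127. Without wild type replicate 1 it was 0.17, with an adjusted p of 0.251.

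Serpinh1, whose product HSP47 binds procollagen and escorts it to the Golgi, stood at 1558, 2327 and 2237 CPM in wild types and at 2427, 2820 and 2666 CPM in mutants. The mutant libraries were all above the wild types. The log2 difference was 0.37 (SE 0.13), and missed the threshold with an adjusted p of 0.0517. It was 0.23 without wild type replicate 1, with an adjusted p of 0.0588.

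Among the hydroxylases, P4ha1 encodes a catalytic subunit of prolyl 4-hydroxylase, whose hydroxyproline keeps the triple helix stable at body temperature. It was at 151, 241 and 286 CPM in wild types and at 237, 339 and 265 CPM in mutants, which overlapped (log2 difference 0.31, SE 0.19, adjusted p = 0.252). The value of P4ha1 was 0.11 without wild type replicate 1. Plod1 encodes lysyl hydroxylase 1, which acts on lysines of the helix. Its levels were 108, 137 and 143 CPM in wild types and 154, 166 and 163 CPM in mutants. The groups stood clear of each other, and Plod1 was called higher, with a log2 fold change of 0.32 (SE 0.088) and an adjusted p of 0.0240. Plod2 encodes lysyl hydroxylase 2, which acts on the telopeptides and so sets the kind of cross-link. At 93.5, 100 and 104 CPM in wild types and 92.5, 95.2 and 90.8 CPM in mutants it was the only gene of the 10 with a negative value here, −0.097 (SE 0.087, adjusted p = 0.445), and its groups overlapped.

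Crtap encodes the cartilage-associated protein, a partner of prolyl 3-hydroxylase 1 and cyclophilin B in the complex that modifies proline at a single site of the helix. It was at 122, 156 and 165 CPM in wild types and at 177, 216 and 203 CPM in mutants. The groups did not overlap, and the log2 difference was 0.43 (SE 0.11), with an adjusted p of 0.0146. Without wild type replicate 1 it was 0.33, with an adjusted p of 0.0283. Lox, the cross-linking enzyme, was at 423, 567 and 609 CPM in wild types and at 547, 661 and 585 CPM in mutants. These overlapped, and the log2 difference of 0.17 (SE 0.13) had an adjusted p of 0.385. It was 0.045 without wild type replicate 1. In all, 5 of the 10 genes had C57BL/6 ranges that did not overlap, all 5 higher in mutants, where 19.7% of all genes tested had mutant libraries that were all above the wild types.

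These calls moved with the samples and with the model. Leaving out mutant replicate 5 or mutant replicate 6 left 0 of the 10 called, while leaving out wild type replicate 2 or wild type replicate 3 gave 5. Over all genes, the 3867 called became 2285 and 1724 without these mutant libraries, and 3301 and 3671 without these wild types. Without wild type replicate 1, 4 of the 10 and 2184 of all genes were called. Fitted on the 6 C57BL/6 libraries alone, edgeR called 0 of the 10 and 1458 of all genes. DESeq2 and limma-voom, fitted on all 12 libraries, each called 5 of the 10, and 4472 and 4705 of all genes.

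Markers of several cell types differed with genotype on C57BL/6. The 10 osteoblast markers summed to 3532 to 5111 CPM in wild types and 6061 to 6855 CPM in mutants, and the 8 fibroblast markers to 1074 to 1652 CPM in wild types and 1779 to 2260 CPM in mutants. The 6 osteoclast markers summed to 3470 to 4238 CPM in wild types and 7308 to 8147 CPM in mutants. Other lists were lower in the mutants. The 7 chondrocyte markers found summed to 4804 to 7127 CPM in wild types and 239 to 2692 CPM in mutants, and the 7 erythroid markers found to 199 to 266 CPM in wild types and 53.1 to 82.4 CPM in mutants. The 6 tenocyte markers summed to 372 to 504 CPM in wild types and 282 to 317 CPM in mutants. The 7 surface epithelium markers went from 123 to 302 CPM in wild types to 3.40 to 68.6 CPM in mutants, and the 6 ciliated cell markers found, of 10, from 12.9 to 27.8 CPM to 3.54 to 8.40 CPM. The 5 endothelium markers summed to 326 to 391 CPM in wild types and 404 to 491 CPM in mutants, and the 6 olfactory neuron markers to 208 to 315 CPM and 130 to 199 CPM. The ranges of these 10 lists did not overlap between the groups, while those of the 3 other lists, for neutrophils, skeletal muscle and Schwann cells, did. In the mutants 1 ciliated marker, Sntn, was at 0 counts in all 3 libraries. The osteoblast list was also used as a covariate, as its mean log2 CPM, in a fit added after seeing the data. The log2 difference was −0.35 for Col1a1, −0.24 for Col1a2 and −0.0098 for Crtap in that fit. In it 0 of the 10 and 41 of all genes were called. Since 74.7% of the variance of that covariate lay between the 2 groups, osteoblast marker level and genotype cannot be told apart here. The same holds for the erythroid list, with 91.1%, and the ciliated list, with 76.4%, each of which also left 0 of the 10 called, with 1 and 0 of all genes. With Y-linked level as a covariate 2 of the 10 and 2786 of all genes were called, and 47.0% of its variance lay between the 2 groups.

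**Figure D2:**
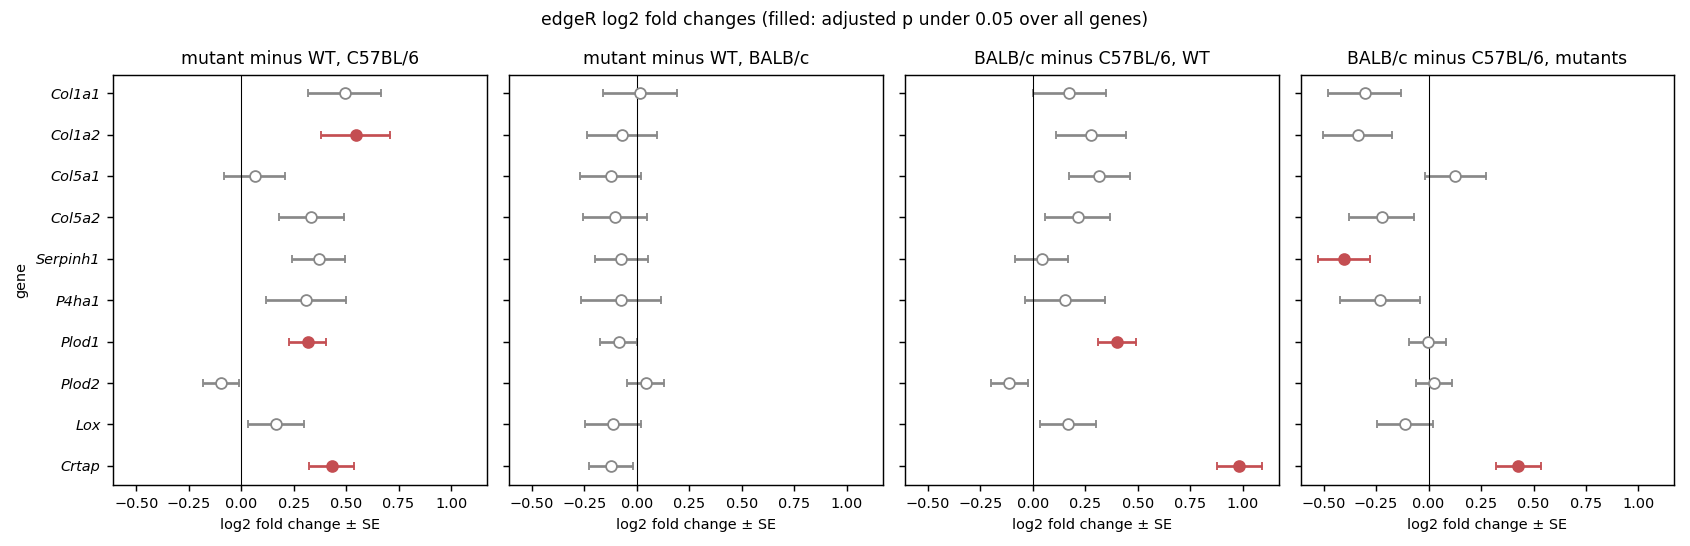
Log2 fold change from edgeR (horizontal axes) of the 10 genes (vertical axis), with bars for 1 SE and n = 3 libraries a group, in 4 comparisons. Filled points passed an adjusted p under 0.05 over all genes tested. Col1a2, Plod1 and Crtap are filled in C57BL/6 mutants, none is filled in BALB/c mutants, and Crtap is filled in both strain comparisons.

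The sequences just upstream of the 3 genes called together are shown so that their promoters can be compared. RefSeq promoter entries of GRCm38.p6 matched 6 of the 10 genes. Each line gives the 250 bases before the RefSeq start on the strand of the gene, with capitals for CCAAT or TATAAA on either strand. The windows are chr6:4505368-4505617 (plus strand) for Col1a2, chr4:147936777-147937026 (minus strand) for Plod1 and chr9:114390713-114390962 (minus strand) for Crtap.
Col1a2: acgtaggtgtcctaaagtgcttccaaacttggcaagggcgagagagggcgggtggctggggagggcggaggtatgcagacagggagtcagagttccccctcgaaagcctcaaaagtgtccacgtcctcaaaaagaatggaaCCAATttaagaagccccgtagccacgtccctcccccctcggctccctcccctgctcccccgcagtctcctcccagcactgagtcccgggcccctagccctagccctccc
Plod1: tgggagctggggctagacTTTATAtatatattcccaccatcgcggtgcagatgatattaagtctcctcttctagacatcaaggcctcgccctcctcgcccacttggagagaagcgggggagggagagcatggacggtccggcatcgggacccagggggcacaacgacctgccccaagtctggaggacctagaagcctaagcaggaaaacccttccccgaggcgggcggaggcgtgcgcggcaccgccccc
Crtap: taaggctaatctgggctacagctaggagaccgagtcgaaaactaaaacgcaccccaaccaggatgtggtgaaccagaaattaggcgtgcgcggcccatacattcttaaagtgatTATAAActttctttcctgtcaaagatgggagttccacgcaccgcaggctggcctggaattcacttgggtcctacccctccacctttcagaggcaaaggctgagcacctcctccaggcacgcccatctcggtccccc

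None of the 4 motifs searched on both strands occurs in all 3 windows. Col1a2 holds CCAAT on its own strand, 109 to 105 bases before the start, and this motif occurs in 33.8% of 32851 RefSeq promoter windows of the same length. TATAAA, found in 12.4% of windows, occurs on the opposite strand of Plod1, 232 to 227 bases before the start, and on the own strand of Crtap, 136 to 131 bases before it. GGGCGG, found in 32.7% of windows, occurs in Col1a2 and in Plod1, and ACGTG, found in 16.6%, occurs in Col1a2. GC content was 62% for Col1a2, 61.6% for Plod1 and 53.6% for Crtap, against a median of 52.4% over all windows. The RefSeq start of Col1a2 lies upstream of the start in the deposited table, so the window may not belong to the transcript that was counted.

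On BALB/c the same allele was compared on another background. Of the 10 genes 0 were called by edgeR, 0 had an unadjusted p under 0.05, and limma-voom and DESeq2 also called 0. Over all genes tested 0.136% were called, and 1901 of the 16190 had an unadjusted p under 0.05. The median log2 fold change of the 10 was −0.082, 8 of the 10 values were negative, and all 10 pairs of ranges overlapped. Of all genes tested 9.93% had mutant libraries that were all above the wild types, and 1623 of the 16190 had them all below.

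Col1a1 stood at 107042, 100115 and 94826 CPM in BALB/c wild type replicates 13 to 15 and at 96809, 104622 and 103730 CPM in mutant replicates 16 to 18. The groups overlapped, with a log2 difference of 0.015 (SE 0.17, adjusted p = 0.994). Col1a2 was at 88309, 81934 and 77019 CPM in wild types and at 75418, 80689 and 79423 CPM in mutants, a log2 difference of −0.070 (SE 0.17, adjusted p = 0.926). Together the type I chains took 17.1% to 19.1% of counts in BALB/c wild types and 17.8% to 18.5% in BALB/c mutants, so that their share stayed inside the wild type range.

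The type V chains overlapped between the genotypes. Col5a1 was at 3897, 3428 and 3624 CPM in wild types and at 3384, 3447 and 3210 CPM in mutants (log2 difference −0.12, SE 0.15). Col5a2 was at 4207, 3918 and 3510 CPM in wild types and at 3500, 3790 and 3543 CPM in mutants (log2 difference −0.10, SE 0.15). Serpinh1, the chaperone gene, was at 2198, 2056 and 2050 CPM in wild types and at 1970, 2091 and 1923 CPM in mutants, with a log2 difference of −0.075 (SE 0.13).

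The modifying enzymes overlapped as well. P4ha1 was at 244, 259 and 252 CPM in BALB/c wild types and at 214, 254 and 248 CPM in mutants. Plod1 was at 175, 163 and 174 CPM against 162, 164 and 156 CPM, so that 2 of its 3 mutant libraries were below the wild type range. Plod2 was at 99.9, 96.4 and 79.4 CPM against 86.9, 104 and 92.9 CPM. Lox was at 624, 660 and 509 CPM against 528, 576 and 552 CPM. Crtap was at 299, 273 and 302 CPM against 267, 277 and 257 CPM, and its log2 difference of −0.12 (SE 0.11, adjusted p = 0.723) was among the largest of the 10. The 10 osteoblast markers summed to 5019 to 6110 CPM in BALB/c wild types and 4725 to 5409 CPM in mutants, which overlapped. Of the 13 marker lists 10 overlapped between the BALB/c genotypes. The erythroid markers were higher in mutants, at 431 to 528 CPM against 219 to 336 CPM, and so were the 7 neutrophil markers, at 771 to 845 CPM against 550 to 649 CPM. The tenocyte markers were lower, at 441 to 619 CPM against 667 to 763 CPM.

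The difference between the genotype effects on the 2 backgrounds was tested as an interaction, the effect on BALB/c minus that on C57BL/6. Of the 10 genes 1 was called, Crtap, with a log2 value of −0.56, an SE of 0.15 and an adjusted p of 0.0400. Over all genes tested 4.58% were called lower and 5.46% higher, in all 1626 of 16190, so 1 of 10 is close to the share of all genes. Plod1 followed at −0.40 (SE 0.12, adjusted p = 0.0598), Col1a2 at −0.61 (SE 0.23, adjusted p = 0.108) and Serpinh1 at −0.45 (SE 0.18, adjusted p = 0.122). Col1a1 was at −0.48 (SE 0.25, adjusted p = 0.219), and at −0.27 without C57BL/6 wild type replicate 1. Without that library Col5a2 went from −0.44 to −0.27, P4ha1 from −0.39 to −0.18, Lox from −0.28 to −0.16 and Col5a1 from −0.19 to −0.022, none of them called. Plod2 alone was positive, at 0.14, and the median of the 10 was −0.42 against 0.0074 over all genes tested. The median was −0.27, against −0.019 over all genes, without C57BL/6 wild type replicate 1. For the 9 genes not called, a different effect on the 2 backgrounds was therefore not shown, although the C57BL/6 effect passed for 2 of them and the BALB/c effect for none. The call of Crtap held in 4 of 9 alternative fits and 4 of 12 fits that left out a library. Without C57BL/6 wild type replicate 1 the interaction of Crtap was −0.45 (adjusted p = 0.0414), and Col1a2 (−0.42, adjusted p = 0.0399) and Plod1 (−0.31, adjusted p = 0.0426) passed too, while 1019 of the 16377 genes tested in that fit were called.

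Between the strains, Crtap was the gene of the 10 that stood out by size. In wild types it averaged 147 ± 22.6 CPM (SD, n = 3) on C57BL/6 and 291 CPM (range 273 to 302) on BALB/c, a 1.98-fold difference with no overlap. The log2 difference, BALB/c minus C57BL/6, was 0.98 (SE 0.11, adjusted p = 3.58e-05), and it passed in all 10 alternative fits and in all 6 fits that left out a library. In mutants it averaged 199 ± 19.7 CPM on C57BL/6 and 267 ± 9.88 CPM on BALB/c, a log2 difference of 0.43 (SE 0.11, adjusted p = 0.00811). All 6 BALB/c libraries lay above all 6 C57BL/6 libraries.

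Of the 10 genes, 2 were called between wild types, Crtap and Plod1, both higher on BALB/c. Over all genes tested 48.5% were called, 22.8% higher and 25.6% lower, and the share of the 10 genes, 2 of 10, was not tested against it. Plod1 averaged 129 ± 18.7 CPM on C57BL/6 and 171 ± 6.41 CPM on BALB/c, a log2 difference of 0.40 (SE 0.088, adjusted p = 0.00312), and 0.29 without C57BL/6 wild type replicate 1 (adjusted p = 0.00291). Col5a1 had ranges that did not overlap, 2124 to 3417 CPM on C57BL/6 and 3428 to 3897 CPM on BALB/c, but did not pass (log2 difference 0.32, SE 0.15, adjusted p = 0.0914). With Crtap and Plod1 it made 3 of 10 genes with all BALB/c libraries above all C57BL/6 libraries, where 27.3% of all genes tested had this. Col1a1 (0.17, SE 0.17) and Col1a2 (0.28, SE 0.17) did not pass, and without C57BL/6 wild type replicate 1 the value of Col1a1 turned to −0.047 and that of Col1a2 went to 0.068. The same omission took Col5a1 to 0.13, Col5a2 from 0.21 to 0.027 and Lox from 0.17 to 0.029, and turned Serpinh1 from 0.042 to −0.11 and P4ha1 from 0.15 to −0.063, with none of them called. The genotype comparison on C57BL/6 and this one share the C57BL/6 wild type libraries.

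Cell type markers also differed between the wild types of the strains, and 8 of the 13 lists did not overlap. Higher on BALB/c were the summed fibroblast markers (1914 to 2017 CPM against 1074 to 1652 CPM), tenocyte markers (667 to 763 against 372 to 504 CPM), neutrophil markers (550 to 649 against 215 to 386 CPM) and Schwann cell markers (154 to 185 against 124 to 141 CPM). Lower were the chondrocyte markers (594 to 1729 against 4804 to 7127 CPM), surface epithelium markers (2.66 to 3.38 against 123 to 302 CPM), olfactory neuron markers (80.9 to 85.4 against 208 to 315 CPM) and ciliated cell markers (4.45 to 5.11 against 12.9 to 27.8 CPM). Krt14 of the epithelial list and Tekt1 and Sntn of the ciliated list were at 0 counts in all 3 BALB/c wild types. Osteoblast markers overlapped, at 5019 to 6110 CPM on BALB/c and 3532 to 5111 CPM on C57BL/6. With the osteoblast list as a covariate, Crtap was still called higher (0.73, adjusted p = 4.26e-04), Plod1 was not called (0.19, adjusted p = 0.0859), and Col1a1 (−0.31, adjusted p = 0.0229), Serpinh1 (−0.29, adjusted p = 0.0294) and P4ha1 (−0.38, adjusted p = 0.0200) were called lower on BALB/c. Of the variance of that covariate 52.7% lay between these groups, and of the variance of the Y-linked level 49.5%.

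Between mutants, 2 of the 10 were called: Crtap was higher on BALB/c and Serpinh1 lower. Over all genes tested 36.9% were called in either direction. Serpinh1 averaged 2637 ± 198 CPM on C57BL/6 and 1995 ± 86.8 CPM on BALB/c, with a log2 value of −0.40, an SE of 0.13 and an adjusted p of 0.0259. That call held in 8 of 10 alternative fits and in 2 of 6 fits without 1 library. Col1a1 (−0.30, SE 0.17, adjusted p = 0.193) and Col1a2 (−0.34, SE 0.17, adjusted p = 0.130) did not pass, although all BALB/c mutants lay below all C57BL/6 mutants. With Serpinh1 and Crtap they made 4 of 10 genes without overlap, 3 lower and 1 higher, where 24.8% of all genes tested had such lower ranges and 25.4% such higher ones. Plod1, which differed between wild types, was at 161 ± 6.48 and 161 ± 3.80 CPM in the mutants of the 2 strains. Its log2 difference there was −0.0033 (SE 0.088). This comparison shares the C57BL/6 mutant libraries with the genotype comparison on that strain.

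Between the mutants 6 of the 13 marker lists did not overlap. The osteoblast markers were lower on BALB/c, at 4725 to 5409 CPM against 6061 to 6855 CPM, as were the osteoclast markers, at 4352 to 4980 CPM against 7308 to 8147 CPM, and the olfactory neuron markers, at 79.3 to 89.4 CPM against 130 to 199 CPM. Higher on BALB/c were the erythroid markers, at 431 to 528 CPM against 53.1 to 82.4 CPM, the neutrophil markers, at 771 to 845 CPM against 110 to 244 CPM, and the tenocyte markers, at 441 to 619 CPM against 282 to 317 CPM. Of the variance of the osteoblast covariate 73.8% lay between these groups, so osteoblast marker level and strain cannot be told apart here.

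Ratios of genes within a library do not depend on how libraries are scaled. They were computed per kilobase of deposited length, and 32 comparisons were made by exact permutation tests, 2-sided, of 3 libraries against 3. No exact permutation test of this size can go below p = 0.1, which becomes 0.229 after Benjamini-Hochberg adjustment over the 32, so no ratio could be called.

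The ratio of Col1a1 to Col1a2 stayed near its level in every group, although each gene varied up to 2.34-fold across libraries. It averaged 1.43 ± 0.058 in C57BL/6 wild types (SD, n = 3 libraries), 1.38 ± 0.033 in C57BL/6 mutants, 1.34 ± 0.010 in BALB/c wild types and 1.42 ± 0.012 in BALB/c mutants. The BALB/c groups did not overlap, at 1.33 to 1.35 and 1.41 to 1.43. Replicate 1 of the C57BL/6 wild types, lowest for both chains, had a ratio of 1.40.

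Within type V collagen, Col5a1 was at 0.696, 0.675 and 0.701 of Col5a2 in C57BL/6 wild types and at 0.582, 0.575 and 0.560 in C57BL/6 mutants. The gap between the groups was several times their spread, with a log2 difference of −0.27 and a pooled SD of 0.028. On BALB/c the ratio was 0.744 ± 0.063 in wild types and 0.730 ± 0.027 in mutants, which overlapped. Replicate 1 of the C57BL/6 wild types did not stand apart in this ratio.

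Type V against type I, the summed Col5a1 and Col5a2 level over the summed Col1a1 and Col1a2 level, was 0.0286, 0.0258 and 0.0261 in C57BL/6 wild types and 0.0216, 0.0228 and 0.0209 in C57BL/6 mutants. On BALB/c it was 0.0275, 0.0269 and 0.0274 in wild types and 0.0264, 0.0259 and 0.0245 in mutants. The mutants lay below the wild types in both strains without overlap, by −0.30 on the log2 scale on C57BL/6 and by −0.091 on BALB/c, each at the smallest exact p of 0.1.

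The balance of lysyl hydroxylases, Plod2 over Plod1, averaged 0.680 ± 0.068 in C57BL/6 wild types and 0.506 ± 0.020 in C57BL/6 mutants, without overlap. It averaged 0.473 ± 0.064 in BALB/c wild types and 0.516 ± 0.043 in BALB/c mutants, which overlapped. The C57BL/6 wild types were thus the group apart, above the 3 other groups. Lox over Col1a1 was 0.00801 ± 0.0012 in C57BL/6 wild types and 0.00622 ± 0.00058 in C57BL/6 mutants, without overlap, and 0.00773 ± 0.00080 and 0.00708 ± 0.00013 on BALB/c, with overlap. Crtap over Col1a1 was 0.00469 ± 0.00085 and 0.00434 ± 0.00027 in C57BL/6 wild types and mutants, and 0.00795 ± 0.00068 and 0.00721 ± 0.00038 in the BALB/c groups. Genotype groups overlapped in this ratio in both strains, while the strains did not overlap in either genotype. Without C57BL/6 wild type replicate 1 the genotype difference of this ratio on C57BL/6 turned from −0.098 to 0.044 on the log2 scale.

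Serpinh1 and P4ha1 were also set against Col1a1. Serpinh1 over Col1a1 averaged 0.0450 in C57BL/6 wild types, 0.0405 in C57BL/6 mutants, 0.0402 in BALB/c wild types and 0.0377 in BALB/c mutants. Only the BALB/c genotype groups failed to overlap, with a log2 difference of −0.091. Without C57BL/6 wild type replicate 1 the log2 difference of this ratio went from −0.15 to −0.056 between the C57BL/6 genotypes and from −0.16 to −0.066 between the wild types. P4ha1 over Col1a1 averaged between 0.00259 and 0.00295 in the 4 groups, and its ranges overlapped in all 4 comparisons.

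**Figure D3:**
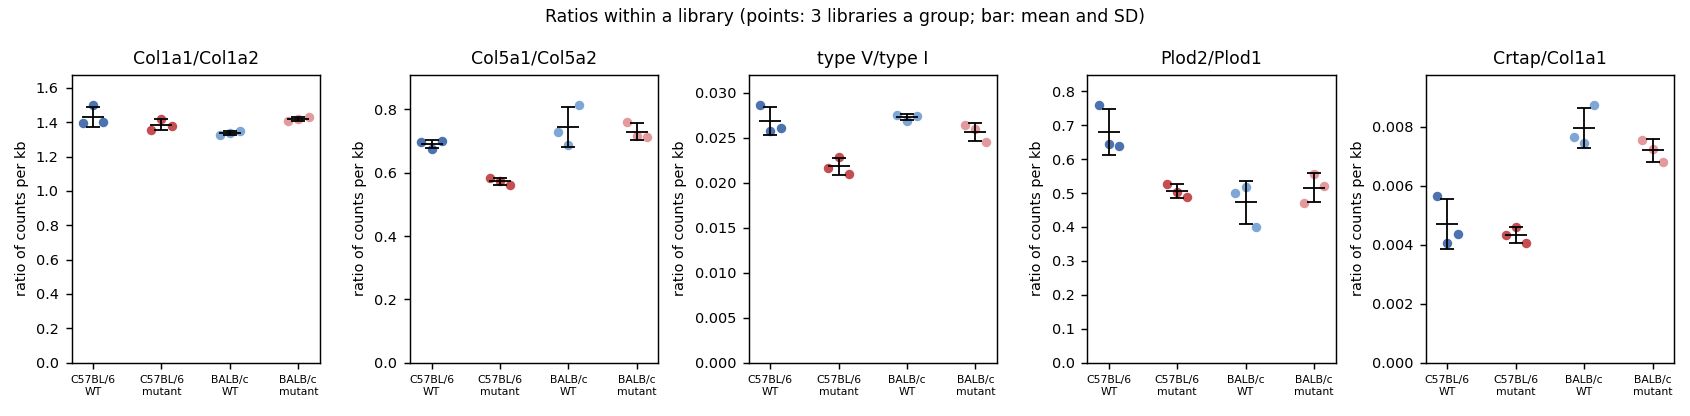
Ratios of counts per kilobase within each library (vertical axes, linear from 0), as points by group, with bars for the mean and SD (n = 3 libraries a group). Col5a1 over Col5a2 is lower in C57BL/6 mutants, at 0.560 to 0.582, than in the other 3 groups, Plod2 over Plod1 is higher in C57BL/6 wild types, and Crtap over Col1a1 separates the strains.

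Across the 12 libraries the profiles of the 10 genes were compared by the root mean square difference of log2 CPM after centring each gene, where a small value means a like profile. The closest pair was Col1a1 and Col1a2, at 0.047, followed by Col1a2 and Col5a2 at 0.092 and Col1a1 and Col5a2 at 0.093. The partner chains Col5a1 and Col5a2 were farther apart, at 0.16, and Col5a1 lay closest to Plod1, at 0.11. The 7 farthest pairs all held Crtap, up to 0.45 from Plod2 and from Serpinh1. These distances share libraries and scaling and were not tested.

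Among 9462 other genes with a mean of at least 10 CPM, the profiles most like Col1a1 were those of Olfml3 (0.081), Creb3l1 (0.083), Entpd3 (0.085), Pcsk6 (0.085) and Adamts2 (0.086). Nearest to Col1a2 were Entpd3 (0.063), Gpr153 (0.068), Serpinf1 (0.075), Ramp1 (0.077) and Cd276 (0.077). No gene outside the 10 came as close to either chain as the chains were to each other. For Lox the nearest were Calu (0.082), Fam114a1 (0.082), Uaca (0.083), Ptgfrn (0.084) and Srpr (0.088). Those for Plod2, whose level varied least, were Ahsa2 (0.065), C230096C10Rik (0.073), Gli2 (0.074), St13 (0.076) and Bicd2 (0.078).

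The rest of the collagen pathway was read from lists of 54 genes in the table, of which 52 were tested. In C57BL/6 mutants 14 of the 52 were called higher and 8 lower, with a median log2 fold change of 0.16 against −0.0040 over all genes tested, of which 11.3% were called higher and 12.6% lower. Without wild type replicate 1, 21 were called, 11 higher and 10 lower, of which 17 were among the 22 called with it. The 5 no longer called were Lepre1, Fkbp10, Ctage5, Sec23a and Tll1, and the log2 values of Tmem38b (−0.74), Sparc (0.30) and Pcolce (0.29) were smaller by more than 1.5 times. Scaling by total counts also called 22, with 8 higher. Without mutant replicate 5 or 6 the calls fell to 12 and 10, on the C57BL/6 libraries alone to 8, and with the ciliated, erythroid and osteoblast covariates to 0, 0 and 2. In BALB/c mutants 0 of the 52 were called by edgeR or limma-voom and 1 by DESeq2, and 8 had an unadjusted p under 0.05 in edgeR. Of all genes tested there, edgeR called 22, limma-voom 44 and DESeq2 314, and 1901 of the 16190 had an unadjusted p under 0.05 in edgeR. The interaction was called for 4 of the 52, of which 2 were higher and 2 lower, and for 1626 of the 16190 genes tested. It was called for 10 without C57BL/6 wild type replicate 1 and for 1 when mutant replicate 5, mutant replicate 6 or any single BALB/c library was left out. Over all genes the calls were 1019, 877 and 624 without these C57BL/6 libraries in that order, and 751 to 905 without a BALB/c library.

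Among other fibrillar and fibril-associated collagens, 0 of 9 were called higher and 2 lower in C57BL/6 mutants, opposite in direction to Col1a2, where 11.3% of all genes tested were higher and 12.6% lower. Col11a1, a minor fibrillar chain, fell by 0.61 on the log2 scale (adjusted p = 0.00773), and Col27a1, a fibrillar collagen of cartilage named because it was the other gene called, fell by 0.64 (adjusted p = 0.00821). Col2a1, the main collagen of cartilage, was at −2.51 and did not pass (adjusted p = 0.107), although its ranges did not overlap. The summed chondrocyte markers were lower in the same mutants, at 239 to 2692 CPM against 4804 to 7127 CPM. Col2a1 is in that list and averaged 3905 CPM in wild types and 687 CPM in mutants, so the sum largely restates its fall. The part of the chondrocyte markers in the falls of these collagens was not tested. Col3a1, the chain of type III collagen and the most abundant of this list at a mean of 10660 CPM, was at 0.0078 (adjusted p = 0.977), and at −0.15 (adjusted p = 0.280) without wild type replicate 1. Col11a2 (0.24) and Col12a1 (−0.35) did not pass, and Col12a1 was called lower without that library (−0.49, adjusted p = 0.0234). Col14a1, a fibril-associated collagen, was higher on BALB/c in wild types (0.81, adjusted p = 0.0111) and in mutants (1.31, adjusted p = 8.72e-04).

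Of 15 other folding and hydroxylation genes, 3 were called higher and 2 lower in C57BL/6 mutants, where 11.3% of all genes tested were called higher and 12.6% lower. Sparc, a collagen-binding matrix protein, was higher by 0.47 (adjusted p = 0.0415), Fkbp10, a prolyl isomerase that acts with lysyl hydroxylase 2, by 0.39 (adjusted p = 0.0340), and Lepre1, an older symbol of prolyl 3-hydroxylase 1, by 0.38 (adjusted p = 0.0283). Tmem38b, which encodes an ion channel of the endoplasmic reticulum, fell by 1.17 (adjusted p = 0.00625), and P4ha3, another prolyl 4-hydroxylase subunit, by 0.41 (adjusted p = 0.0383). Tmem38b was lower on BALB/c in wild types (−2.13, adjusted p = 5.92e-05) and was called in the interaction (1.32, adjusted p = 0.0358). Without C57BL/6 wild type replicate 1 its interaction was 0.90 (adjusted p = 0.0298). P4hb, the partner subunit of P4ha1, was at 0.22 and did not pass (adjusted p = 0.111), nor without wild type replicate 1 (0.14).

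The partners of Crtap in its complex can be set beside it. Between wild types, Lepre1 was higher on BALB/c by 0.52 (adjusted p = 0.00268) and Ppib, which encodes cyclophilin B, by 0.59 (adjusted p = 6.89e-05), against 0.98 for Crtap. Between mutants Ppib was higher by 0.30 (adjusted p = 0.00576), while Lepre1 was at 0.067 (adjusted p = 0.666). In that list 8 of 15 genes were called higher and 3 lower on BALB/c in wild types, where 22.8% of all genes tested were higher and 25.6% lower.

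Secretion of procollagen needs enlarged transport vesicles. Of 9 tested genes for this step, 5 were called higher in C57BL/6 mutants and 0 lower, with a median of 0.21, beside 11.3% higher and 12.6% lower over all genes tested. In the fit without wild type replicate 1, 3 of these 5 were called, not Sec23a (adjusted p = 0.0581) or Ctage5 (adjusted p = 0.0746), and Klhl12 was called in addition (0.28, adjusted p = 0.0201). Sec31a (0.38, adjusted p = 0.0211), Sec24d (0.41, adjusted p = 0.0171) and Sec23a (0.36, adjusted p = 0.0189) encode parts of the vesicle coat, and Creb3l1 (0.47, adjusted p = 0.0149) encodes a transcription factor known to act on Col1a1 in bone. Ctage5, listed under an older symbol, was the fifth (0.20, adjusted p = 0.0463). Mia3, a cargo receptor for procollagen, was at 0.12 (adjusted p = 0.280), and at 0.072 without wild type replicate 1. In BALB/c mutants 0 of the 9 were called, where 0.136% of all genes tested were called. Between mutants 6 of the 9 were lower on BALB/c, among them Sec24d (−0.74, adjusted p = 2.28e-04), where 3054 of all 16190 genes tested were lower.

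Of 7 tested genes for cutting propeptides, 3 were called higher and 2 lower in C57BL/6 mutants, against the same 11.3% and 12.6% over all genes tested. Bmp1, which removes the carboxyl propeptide, rose by 0.56 (adjusted p = 0.00169), its enhancer Pcolce by 0.47 (adjusted p = 0.0411) and Adamts2, which removes the amino propeptide, by 0.50 (adjusted p = 0.0180). The lower ones were sparse, namely Pcolce2 (−1.17, adjusted p = 0.00826), another such enhancer, and Tll1 (−0.68, adjusted p = 0.0239), a relative of Bmp1. Bmp1 (−0.62, adjusted p = 0.0129) and Pcolce2 (1.31, adjusted p = 0.0436) also differed between the backgrounds in the interaction, where Pcolce2 was not called without C57BL/6 wild type replicate 1 (1.07, adjusted p = 0.0885). Adamts3, another amino propeptidase, was lower on BALB/c in wild types (−0.57, adjusted p = 7.54e-04) and mutants (−0.55, adjusted p = 0.00106).

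Among the other lysyl oxidases, 1 of 4 was called in C57BL/6 mutants, where 12.6% of all genes were lower, namely Loxl2, which fell by 0.52 (adjusted p = 0.0176) where Lox did not pass. Loxl1 (0.13), Loxl3 (−0.25) and Loxl4 (0.15) did not pass there, and Loxl3 was called lower without wild type replicate 1 (−0.31, adjusted p = 0.0451). Of 8 fibril-binding receptors, 3 were called higher and 1 lower, beside 11.3% and 12.6% of all genes. Mrc2, which takes up collagen for breakdown, rose by 0.48 (adjusted p = 0.00596), and the integrin chains Itga10 and Itga2 by 0.59 (adjusted p = 0.00586) and 0.76 (adjusted p = 0.00443). Mrc2 was also called in the interaction (−0.53, adjusted p = 0.0354), where it was at −0.44 (adjusted p = 0.0323) without C57BL/6 wild type replicate 1. Ddr1, a collagen receptor kinase found mainly in epithelium, fell by 0.77 (adjusted p = 0.00518). The summed level of the surface epithelium markers was lower in the same libraries, as given above, and its part in this fall was not tested. Itgb1 was at 0.15 and did not pass, nor without wild type replicate 1 (0.079).

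**Figure D4:**
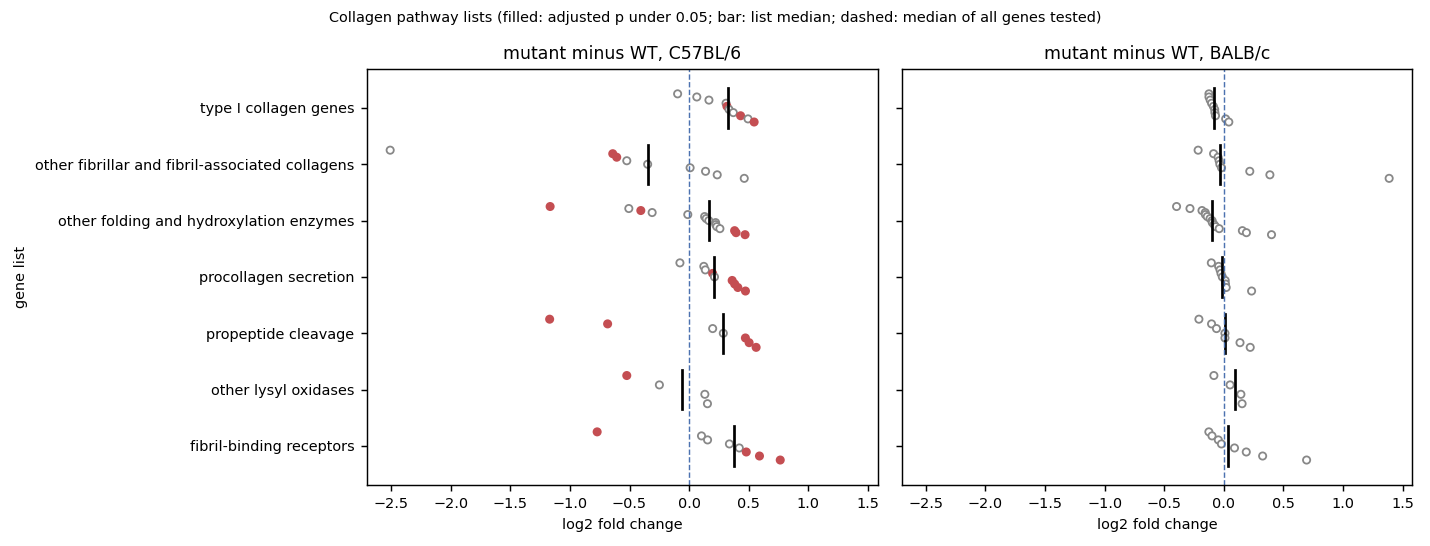
Log2 fold change, mutant minus wild type (horizontal axes), of the 10 genes and of the other collagen pathway lists (rows), on C57BL/6 on the left and BALB/c on the right. Filled points passed an adjusted p under 0.05, the black bar is the list median and the dashed line the median of all genes tested; filled points are seen on C57BL/6 only, 14 higher and 8 lower outside the 10 genes.

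The authors' deposited table of DESeq2 comparisons covers the same 10 genes. In that deposited table of the authors, 6 of the 10 had a q-value under 0.05 in C57BL/6 mutants against wild types, all positive: Col1a1 (log2 fold change 0.43, q = 0.0170), Col1a2 (0.48, q = 0.00317), Col5a2 (0.31, q = 0.0406), Serpinh1 (0.35, q = 0.00353), Plod1 (0.31, q = 0.00140) and Crtap (0.42, q = 4.51e-05). Over all genes with a q-value in the authors' deposited table, 25.3% passed in this comparison. For BALB/c mutants against wild types the authors' deposited table has 0 of the 10, where 1.43% of all genes passed. Its strain comparisons are coded C57BL/6 minus BALB/c, and the authors' deposited table gives Crtap −0.99 (q = 2.79e-27) in wild types and −0.47 (q = 1.21e-06) in mutants. Between wild types the authors' deposited table also has Plod1 (−0.43, q = 1.11e-06) and Col5a1 (−0.35, q = 0.00509) under the threshold, where 45.3% of all genes passed. Col5a1 did not pass in the edgeR fit. Between mutants the authors' deposited table also has Serpinh1 (0.43, q = 1.16e-04), where 36.1% of all genes passed. The edgeR fit called 3 where the table has 6 on C57BL/6, and in the fit Col1a1, Col5a2 and Serpinh1 had adjusted p-values of 0.0594, 0.127 and 0.0517.

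GENCODE annotation places exons of other transcripts over exons of Col5a1 (2810430I11Rik and Gm13372), Plod2 (Gm38391) and Lox (AC161119.1), all on the opposite strand and none a row of the count table. Whether counting used strand is not given in the sources used here, so reads of these transcripts cannot be told apart from those of the 3 genes. GENCODE shows no such exon overlap for the other 7 genes.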

How the data were processed

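RNA-seq counts of 12 mouse frontal bone samples in 4 groups of 3 were analysed as deposited. Per the submitters' processing notes, bcl2fastq, TopHat2 2.0.6, HTSeq and DESeq2 were used with mm10; their roles, the annotation and the strand setting are not given in the sources used here. Per the labels' protocols, tissue was digested with collagenase and trypsin before extraction. The authors deposited raw counts per gene, RPKM values (not used for results), a gene length, used here for levels per kilobase, and a table of group comparisons that holds p-values, q-values and changes as log2 of the fold. All deposited counts were even, and 0 value columns belonged to no sample.

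Genes were kept by filterByExpr in edgeR 4.0.16 (minimum count 10, minimum total 15), leaving 16190 of 23358 rows. Libraries were scaled by TMM, and 1 quasi-likelihood model with 4 group means was fitted in R 4.3.3. P-values were adjusted by Benjamini-Hochberg over all genes tested and called under 0.05. Standard errors are those implied by the fold change and its F statistic. DESeq2 1.42.0, limma-voom (limma 3.58.1), other scalings and filters, covariates and fits without 1 library were alternatives. Marker covariates were the mean log2 CPM over the genes of a list, not the summed CPM given in the text. The Y-linked covariate was the log2 of the summed CPM plus 1. Likeness used log2 CPM with a prior count of 2. Named pathway genes were the 3 most abundant of each list and up to 2 with the smallest adjusted p. Genes outside this rule were named because a list's calls included them, except Col2a1, which was called in no comparison. The 10 genes and the lists were chosen with earlier results of these data known.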

Additional observations from a re-analysis of the deposited data

Results flagged for a closer look

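The genotype effect on Crtap differed between the backgrounds with a log2 value of −0.56 (SE 0.15, edgeR adjusted p = 0.0400), the effect on BALB/c minus that on C57BL/6. Mutants were higher on C57BL/6, by 0.43 (adjusted p = 0.0146), with all 3 libraries above the wild types, while on BALB/c the value was −0.12 (adjusted p = 0.723) and the groups overlapped. The adjusted p of the interaction ran from 0.00331 to 0.954 over its alternatives, and the call held in 4 of 9 of them. Osteoblast markers, summed, ran from 3532 to 5111 CPM in C57BL/6 wild types and from 6061 to 6855 CPM in C57BL/6 mutants. With the mean log2 CPM of that list as a covariate, added after seeing the data, the interaction was −0.093 (adjusted p = 0.918). Of the variance of the covariate among the C57BL/6 libraries 74.7% lay between the genotypes, so marker level and genotype cannot be told apart there.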

How the results depend on the processing

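No paired analysis was possible because the groups share no replicate numbers. Crtap was called higher on BALB/c in wild types under all 10 alternatives and all 6 fits without 1 library. No ratio could pass its test under any setting. Of the 32 ratio comparisons, 7 turned in sign without 1 library, among them Crtap over Col1a1 on C57BL/6 (0.044 without C57BL/6 wild type replicate 1) and, between wild types, Lox over Col1a1 (0.070 without that library) and P4ha1 over Col1a1 (0.043 without C57BL/6 wild type replicate 3). The other calls depended on the fit, and the cause was not tested except where fewer samples or the variance that a covariate shares with the groups is given. In mutants against wild types on C57BL/6, the 3 collagen genes called became 5 with DESeq2, 5 with limma-voom, and 0 with only the samples compared and with the ciliated, erythroid or osteoblast covariate, the last chosen after seeing the data. For the interaction, 1 became 3 with DESeq2 and 0 with total counts or with the ciliated, erythroid, Y-linked or osteoblast covariate. In the strain comparison of wild types, 2 became 1 with the ciliated or the erythroid covariate and 4 with the osteoblast covariate, of which 1 was higher and 3, Col1a1, Serpinh1 and P4ha1, lower on BALB/c. In that of mutants, 2 became 5 with only the samples compared and 0 with the erythroid covariate. With the osteoblast covariate 2 were called there, both higher on BALB/c, so that Serpinh1, lower in the main fit, was not among them. Leaving out 1 library gave 0 to 5 called collagen genes on C57BL/6, 0 to 3 for the interaction and 1 to 2 between the mutants of the strains. For the 52 other pathway genes, fits chosen after seeing the data changed 22 called on C57BL/6 to 8 with only the samples compared, 14 with the Y-linked covariate, 0 with the ciliated or erythroid covariate and 2 with the osteoblast covariate. On BALB/c 0 became 1 with DESeq2. For the interaction 4 became 19 with DESeq2, 11 with total counts (10 of them higher), 0 with the ciliated or erythroid covariate and 2 with the osteoblast covariate. Between wild types 30 became 11 and 3 with the ciliated and erythroid covariates, and between mutants 19 became 0 with the erythroid covariate. Leaving out 1 library gave 10 to 26 on C57BL/6, 0 to 1 on BALB/c and 1 to 17 for the interaction.

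Over all genes, 3867 called on C57BL/6 became 1458 with only the samples compared, and 0, 1 and 41 with the ciliated, erythroid and osteoblast covariates. On BALB/c, 22 called became 314 with DESeq2, 44 with limma-voom, 4 with total counts, 71 with only the samples compared, and 40, 0, 4 and 55 with the ciliated, erythroid, Y-linked and osteoblast covariates. For the interaction, 1626 became 2683 with DESeq2, and 11, 0 and 35 with the ciliated, erythroid and osteoblast covariates. Between wild types, 7847 became 2070, 1353 and 4828 with these covariates, and between mutants 5968 became 2 with the erythroid covariate. Leaving out 1 library gave 1724 to 4833 on C57BL/6, 0 to 95 on BALB/c and 624 to 3129 for the interaction. Scaling by total counts moved the median of all genes by −0.20 on C57BL/6, 0.23 in the interaction, −0.11 between wild types and 0.12 between mutants. Under it 13.2%, 90.5%, 31.2% and 67.8% of the called genes were higher, where TMM scaling had 1835 of 3867, 884 of 1626, 3698 of 7847 and 2914 of 5968.

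Signs of log2 fold changes turned as follows. With total counts they were −0.12 for Col5a1 and −0.018 for Lox on C57BL/6, 0.027 for Col5a1 in the interaction, −0.056 for Serpinh1 between wild types, and 0.11 for Plod1 and 0.0047 for Lox between mutants. Without a filter Plod1 between mutants was 0.0058, and with only the samples compared 0.0094. With the ciliated covariate on C57BL/6 they were −0.23 for Col1a1, −0.071 for Col1a2, −0.48 for Col5a1, −0.27 for Col5a2, −0.15 for Serpinh1, −0.48 for P4ha1 and −0.25 for Lox, and in the interaction 0.29, 0.036, 0.39, 0.20, 0.10, 0.45 and 0.16 for the same genes in that order. Between wild types they were −0.48, −0.28, −0.17, −0.33, −0.43, −0.56 and −0.21 in the same order, and between mutants Plod1 was 0.041. With the osteoblast covariate on C57BL/6 they were −0.35 for Col1a1, −0.24 for Col1a2, −0.59 for Col5a1, −0.39 for Col5a2, −0.20 for Serpinh1, −0.64 for P4ha1, −0.41 for Lox, −0.055 for Plod1 and −0.0098 for Crtap. For the first 7 of these in that order they were 0.41, 0.21, 0.50, 0.32, 0.15, 0.60 and 0.32 in the interaction, and −0.31, −0.17, −0.060, −0.20, −0.29, −0.38 and −0.17 between wild types. Between mutants they were 0.10 for Col1a1, 0.037 for Col1a2, 0.12 for Col5a2, 0.22 for P4ha1, 0.17 for Plod1 and 0.15 for Lox. With the erythroid covariate Plod2 was 0.12 on C57BL/6, −0.055 on BALB/c, −0.18 in the interaction and −0.42 between mutants. With it Col1a1 was −0.0053 on BALB/c, Serpinh1 −0.039, P4ha1 −0.087 and Lox −0.050 between wild types, and Col5a1 −0.39 and Crtap −0.15 between mutants. Without 1 library, ranges that crossed 0 were −0.026 to 0.069 for Col1a1, −0.12 to 0.0030 for P4ha1 and −0.053 to 0.11 for Plod2 on BALB/c, −0.10 to 0.19 for Col5a1 on C57BL/6, −0.047 to 0.31 for Col1a1, −0.063 to 0.36 for P4ha1 and −0.11 to 0.15 for Serpinh1 between wild types, and −0.030 to 0.024 for Plod1 and −0.041 to 0.091 for Plod2 between mutants. Each of the 10 genes had at least 2660 counts in every library.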
